A study of Mus musculus with 9 samples.

Results

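The transcripts of 7 genes were followed through an ac4C precipitation of mouse testis RNA. They encode NAT10, its tRNA adaptor THUMPD1, the RNA-binding proteins TDP43 (gene *Tardbp*), PCBP1 and PCBP2 that were studied as its mRNA adaptors, and PCBP3 and PCBP4, the other members of the poly(rC)-binding protein family. The genes were taken by name out of 55401 genes in the count table. All 7 of them were among the 22510 genes that passed the filter on low counts and were tested.

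The 9 libraries came from poly(A) RNA of testes of wild-type male mice, which the methods name as ICR, and all groups shared this genotype. Input RNA was sequenced without precipitation (3 libraries, no antibody), IgG libraries held RNA recovered with control immunoglobulin (3 libraries), and acRIP libraries held RNA recovered with an antibody against N4-acetylcytidine (3 libraries). Neither the labels nor the methods say how old these mice were, or whether the numbered libraries of a group came from separate mice or separate precipitations. The p-values therefore measure the spread between these libraries, which may be technical. Whole testes were used, so that a change in the level of a transcript per cell cannot be told apart from a change in the number of cells that hold it.

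NAT10 is the acetyltransferase that makes ac4C, an acetylated form of cytidine. It modifies 18S rRNA guided by box C/D snoRNAs such as U13, and tRNA with THUMPD1, which binds tRNA through its THUMP domain. TDP43 binds UG-rich RNA through its RRM domains and acts in splicing and RNA stability. PCBP proteins bind C-rich single-stranded RNA through KH domains. *Pcbp1* is an intronless gene related to *Pcbp2*, and its transcript is read from a single exon.

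The 4 *Pcbp* genes have related coding sequences. The coding sequences of *Pcbp1* (1068 bases) and *Pcbp2* (1086 bases) were identical at 81.6% of 1053 aligned positions, whereas *Pcbp1* and *Pcbp4* shared 64.5% of 936. The stretch of 30 coding bases most alike across the family lies in the part that encodes the first KH domain. Of its positions, 24 are the same in all 4 genes. It is shown here 5′ to 3′ on the coding strand of mm10, with capitals at the bases that differ from *Pcbp1*.
Pcbp1: ctgatgcacggaaaggaagtaggcagcatc
Pcbp2: ctTatgcaTggaaaggaagtTggcagTatc
Pcbp3: ctgatgcaTggaaaggaagtTggAagcatc
Pcbp4: ctgatgcacggGaaggaagtGggcagcatc
The *Pcbp1* copy lies in its only exon at chr6:86525832-86525861 on the minus strand. The other copies are each split over 2 exons, between chr15:102473388-102474145 (*Pcbp2*, plus strand), chr10:76799538-76800774 (*Pcbp3*, minus strand) and chr9:106460135-106460290 (*Pcbp4*, plus strand). Even in this stretch, *Pcbp2* differed from *Pcbp1* at 4 bases, *Pcbp3* at 3 and *Pcbp4* at 2. No window of 100 coding bases was identical between any pair of the 4 genes.

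Reads that map to more than 1 place were left out of the counts, so each transcript was also searched for exact copies elsewhere in the genome. None of the windows of 100 bases of the *Nat10*, *Thumpd1*, *Pcbp2*, *Pcbp3* and *Pcbp4* transcripts occurred outside their own gene on the assembled chromosomes of GRCm38, the assembly of mm10. For *Pcbp1*, 6 of 1731 windows (0.347%) also occurred on chromosome 6 within *Arhgap25*. For *Tardbp*, 78 of 7378 windows (1.06%), in its 3′ UTR, also occurred on chromosome 3 where no gene is annotated. The processed pseudogene *Gm12186* was looked at as a relative of *Pcbp2*, a relation that was not tested here. It held 12 to 22 counts per input library, 2 to 8 per IgG library and 22 in each acRIP library. *Pcbp2* had at least 1506 in any library.

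Overlapping genes were a larger source of uncertainty, because the use of strand in the counting is not given in the sources used here. *Pcbp2* shares 1573 of its 5203 exonic bases (30.2%) with *Map3k12* on the opposite strand, and *Tardbp* shares 1817 of 7796 (23.3%) with *Masp2*. Neither neighbor was well covered, with 14 to 115 counts of *Map3k12* and 0 to 4 of *Masp2* per library. These counts do not show how reads in the shared bases were assigned, or how many were left out of *Pcbp2* and *Tardbp*. *Pcbp1* shares 75 bases (4.10%) with the antisense gene *1600020E01Rik*. *Pcbp4* shares 51 bases (1.20%) with *Gpr62*, which had a mean input FPKM of 44.6. *Pcbp2* also shares 129 bases with *Gm26518* on the opposite strand and 182 with *Gm27406*, which had 0 counts. No annotated exon of another gene overlapped *Nat10*, *Thumpd1* or *Pcbp3*.

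Total counts ran from 22023925 to 31340090 in input, from 14647542 to 18786779 in IgG and from 16025779 to 18639134 in acRIP. The number of genes with any count ran from 28552 to 29642 in input, 26204 to 26874 in IgG and 22206 to 22402 in acRIP. Levels are given as FPKM, here the counts on a gene per kilobase of its merged exons scaled by the total count of the library in the usual way. An FPKM is a share of the library and not an amount of RNA recovered. Markers of spermatogonia, spermatocytes, spermatids, Sertoli, Leydig and peritubular cells were all detected in every input library. Of the 3 epididymis markers, *Crisp1* (mean FPKM 2.15) and *Defb20* (0.228) were detected in every input library and *Lcn5* was at 0. The summed FPKM of 4 spermatocyte markers ran from 418 to 423 in input, 315 to 342 in IgG and 230 to 251 in acRIP. Its members did not move alike, since the mean FPKM of *Ddx4* was 266 in input, 167 in IgG and 116 in acRIP, and that of *Sycp1* 35.7, 59.8 and 50.1. The sum of 3 blood markers ran from 23 to 24.6, 37.6 to 46.7 and 31.8 to 35.5 in the same order of groups, with *Hba-a1* at 15.2, 33.4 and 32.1 and *Alas2* at 8.19, 6.49 and 0.829. The part of such cell types in the values of the 7 genes was not tested.

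*Pcbp3* was the most abundant of the 7 transcripts in input testis RNA, and *Nat10* the least. The mean input FPKM was 101 ± 1.37 (SD, n = 3) for *Pcbp3*, above 95.1% of the 15522 tested protein-coding genes. It was 29.3 ± 1.69 for *Pcbp1* and 18.8 ± 0.344 for *Pcbp2*. *Tardbp* (12.5 ± 0.243) and *Thumpd1* (11.7 ± 0.725) came next and their libraries overlapped, so their order is not settled by these values. *Pcbp4* followed with 4.63 ± 0.281, and *Nat10* with 3.56 ± 0.190 stood above 55.1% of protein-coding genes. The other neighbors in this order did not overlap between libraries.

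The order depended in part on the length used. Merged exons of *Nat10* come to 7199 bases, but its longest transcript in the consensus coding sequence (CCDS) set has 3879, and for *Pcbp2* the lengths are 5203 and 3222. Per base of that transcript, an alternative chosen after seeing the data, *Pcbp1* (29.3 ± 1.69 FPKM) and *Pcbp2* (30.3 ± 0.555 FPKM) had overlapping input levels. The input level of *Nat10* was 6.60 ± 0.352 FPKM on this scale, again the lowest of the 7, after *Pcbp4* with 9.71 ± 0.588. *Pcbp3* was again the highest, with 117 ± 1.58.

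**Figure D1:**
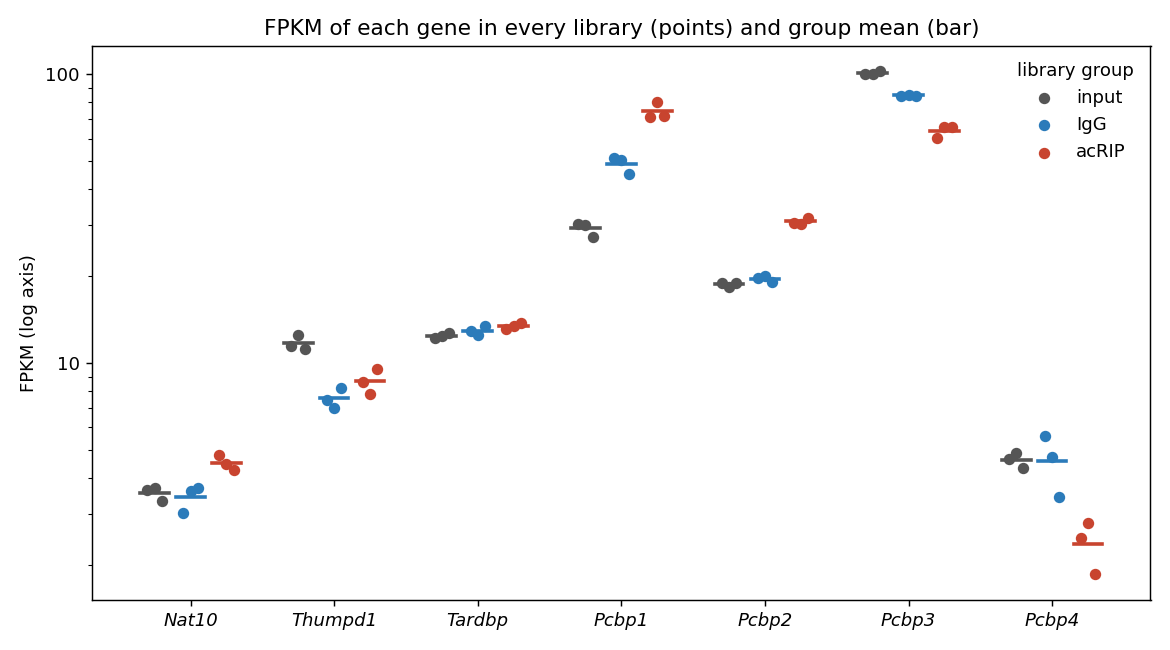
FPKM (log axis) of the 7 genes in each of the 9 libraries, with input in gray, IgG in blue and acRIP in red. Points are libraries and short bars are group means. Pcbp1 rises from 29.3 in input to 74.5 in acRIP, and Pcbp3 falls from 101 to 63.9.

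Counts in precipitates were compared with edgeR's quasi-likelihood test in a single fit of all 9 libraries, with Benjamini-Hochberg adjustment over the 22510 genes. A gene was called when its adjusted p was below 0.05 and its fold change above 2. The 3 comparisons (IgG over input, acRIP over input and acRIP over IgG) share libraries and are not independent of each other. Without a requirement on fold size, 26.4% of tested genes were higher and 37.6% were lower in acRIP than in IgG, so an adjusted p below 0.05 by itself was common.

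*Nat10*, the acetyltransferase gene, was recovered more with the ac4C antibody than with IgG, by 1.35-fold. Its FPKM in input was 3.64, 3.70 and 3.34 in libraries 1 to 3. In IgG it was 3.04, 3.61 and 3.70, and in acRIP it was 4.80, 4.49 and 4.27. All acRIP libraries lay above all IgG and input libraries, while IgG and input overlapped. The log2 fold change in edgeR was 0.43 ± 0.10 (SE) for acRIP over IgG (adjusted p = 0.000397) and 0.42 ± 0.10 for acRIP over input (adjusted p = 0.000325). For IgG over input it was −0.01 ± 0.10 (edgeR adjusted p = 0.938). These are changes well under 2-fold, at 534 to 821 counts per input library and 515 to 603 per acRIP library.

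*Thumpd1*, the gene of the tRNA adaptor, was lower in both precipitates than in input. Its FPKM was 11.5, 12.6 and 11.2 in the input libraries. It was 7.45, 7.02 and 8.22 in IgG and 8.60, 7.82 and 9.55 in acRIP. Every precipitate library lay below every input library, and the IgG and acRIP libraries overlapped. In edgeR, *Thumpd1* fell by 0.60 ± 0.10 (SE) on the log2 scale in IgG (adjusted p = 5.69e-06) and by 0.36 ± 0.10 in acRIP (adjusted p = 0.00174), both against input. The falls stood at percentiles 19.3 and 40.9 of all tested genes. acRIP over IgG gave 0.24 ± 0.10 with an edgeR adjusted p of 0.0407. That last difference did not pass 0.05 in several alternatives, among them total count normalization (0.19, adjusted p = 0.104) and leaving out acRIP replicate 3 (0.18, adjusted p = 0.177), IgG replicate 2 (0.19, adjusted p = 0.153) or IgG replicate 1 (0.23, adjusted p = 0.0894).

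*Tardbp*, which encodes TDP43, had the smallest change of the 7 in acRIP over input and in acRIP over IgG. The input libraries had FPKM values of 12.2, 12.4 and 12.7. The IgG libraries had 12.9, 12.5 and 13.4, and the acRIP libraries 13.1, 13.4 and 13.8. acRIP lay above input without overlap, whereas IgG overlapped both. With library sizes scaled as in the fit (TMM), the groups were fully separated, at 11.96 to 12.34 in input, 12.45 to 13.42 in IgG and 13.52 to 14.08 in acRIP. The log2 fold change of acRIP over input was 0.19 ± 0.05 (SE; edgeR adjusted p = 0.00216), and under total count normalization it was 0.11 (adjusted p = 0.0655). For acRIP over IgG it was 0.10 ± 0.06 (edgeR adjusted p = 0.101), with a 95% confidence interval from −0.01 to 0.21. Upper quartile normalization put acRIP over IgG at 0.15 (adjusted p = 0.0164), and leaving out acRIP replicate 1 also did (adjusted p = 0.0407).

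*Pcbp1* was the most enriched of the 7 transcripts over input, and it was recovered with control IgG as well. Its FPKM was 30.4, 30.2 and 27.4 in input. With IgG it was 51.4, 50.4 and 45.4, and with the ac4C antibody it was 71.5, 80.3 and 71.6. The 3 groups were fully separated, with IgG between input and acRIP. The enrichment over input was 2.69-fold in acRIP (log2 fold change 1.43 ± 0.07 SE, edgeR adjusted p = 6.41e-19) and 1.71-fold in IgG (0.77 ± 0.07, adjusted p = 7.70e-12). Over IgG, acRIP was 1.57-fold higher (0.65 ± 0.06, edgeR adjusted p = 4.05e-10). The value over input stood at the 87.4th percentile of all tested genes and the value over IgG at the 81.9th.

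*Pcbp2*, the closest relative of *Pcbp1*, was enriched in acRIP without a matching rise in IgG. Its input FPKM was 18.9, 18.4 and 19.0. In IgG it was 19.8, 20.1 and 19.1, and in acRIP it was 30.7, 30.4 and 31.9. The acRIP libraries stood clear of the other 6, and IgG stood above input by a narrow margin without overlap. acRIP was 1.63-fold higher than IgG (log2 0.71 ± 0.05 SE, edgeR adjusted p = 4.94e-13) and 1.75-fold higher than input (0.81 ± 0.05, adjusted p = 1.75e-15). IgG over input was 0.10 ± 0.05 (edgeR adjusted p = 0.106). Over IgG the log2 fold changes of *Pcbp1* and *Pcbp2* thus had overlapping 95% confidence intervals, 0.52 to 0.79 and 0.60 to 0.81, and over input they did not, with 1.29 to 1.56 against 0.70 to 0.91.

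*Pcbp3*, the family member with the highest input level, was depleted from both precipitates. The FPKM in input was 100.2, 101 and 103. It was 84.4, 85.1 and 84.2 in IgG and 60.2, 65.7 and 65.7 in acRIP. The groups were fully separated in the order opposite to that of *Pcbp1*. *Pcbp3* fell by 0.23 ± 0.04 (SE) on the log2 scale in IgG (edgeR adjusted p = 3.67e-05) and by 0.58 ± 0.04 in acRIP (adjusted p = 1.70e-13), both against input. Against IgG, it fell by 0.36 ± 0.04 in acRIP (edgeR adjusted p = 3.24e-08). These 3 values stood at percentiles 37.7, 33.7 and 37.2 of all tested genes, so many genes fell further.

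*Pcbp4* was the most depleted of the 7 in acRIP. Its input FPKM was 4.68, 4.88 and 4.33. The IgG libraries were uneven, with 5.62, 4.75 and 3.45, and the acRIP libraries had 2.49, 2.79 and 1.86. acRIP lay below both other groups without overlap, on 133 to 222 counts per library, and IgG spanned the input range. Against input, *Pcbp4* fell by 0.88 ± 0.16 (SE) on the log2 scale in acRIP (edgeR adjusted p = 9.02e-06) and against IgG by 0.89 ± 0.16 (adjusted p = 1.32e-05), short of 2-fold. Leaving out acRIP replicate 2 took it past 2-fold in both comparisons, and leaving out IgG replicate 3 did so against IgG. IgG over input was 0.02 ± 0.15 (edgeR adjusted p = 0.940). The acRIP values over input and over IgG stood at percentiles 26.4 and 23.6 of all tested genes.

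**Figure D2:**
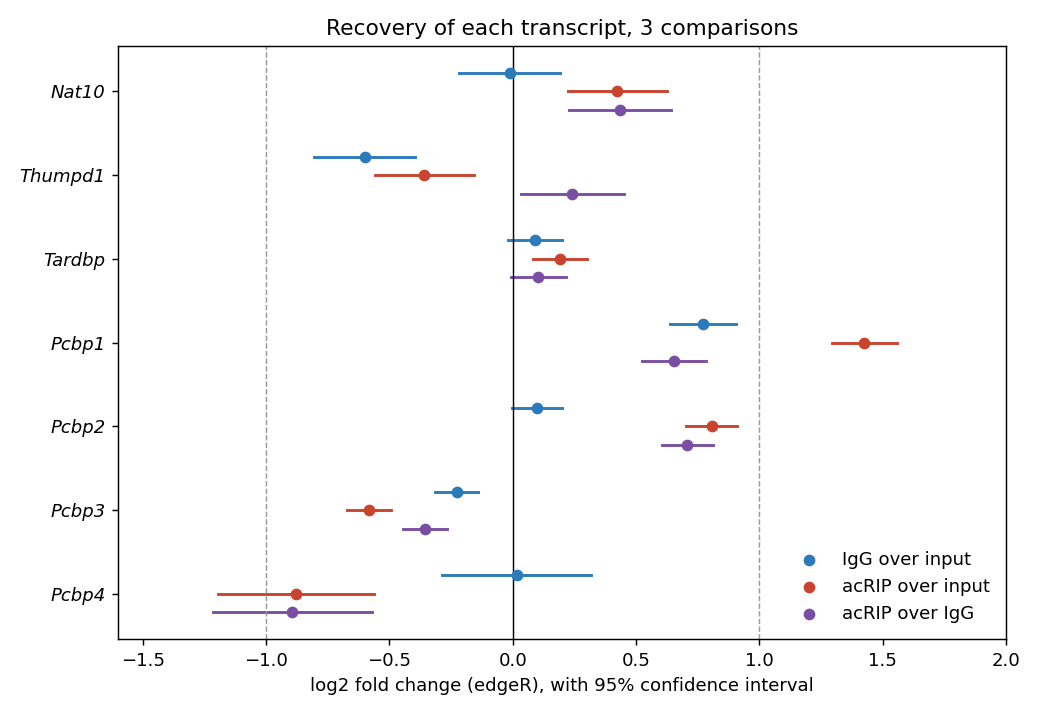
Log2 fold change (x axis) of the 7 genes in edgeR, with 95% confidence intervals as lines, for IgG over input (blue), acRIP over input (red) and acRIP over IgG (purple). Dashed lines mark 2-fold. Pcbp1 in acRIP over input (1.43) is the one interval that lies beyond a dashed line.

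Across the 7 genes, *Pcbp1* in acRIP over input was the single call at more than 2-fold. The count of called genes was 1 of 7 higher and 0 of 7 lower for acRIP over input, where 17.7% of all tested genes were called higher and 22.9% lower. For acRIP over IgG it was 0 higher and 0 lower, against 11.5% and 20.9% of all tested genes. For IgG over input it was likewise 0 and 0, against 13.5% and 7.22%. With edgeR's adjusted p below 0.05 at any fold, 4 genes rose and 3 fell in acRIP relative to input (all tested genes: 32.0% and 40.3%). By the same rule 4 rose and 2 fell in acRIP relative to IgG (all tested genes: 26.4% and 37.6%), and 1 rose and 2 fell in IgG relative to input (all tested genes: 25.9% and 26.0%). Unadjusted p below 0.05 gave the same numbers, and DESeq2 gave the same numbers of calls at 2-fold. The FPKM values of the groups did not overlap for 4 higher and 3 lower genes in acRIP over input (all tested genes: 30.8% and 44.5%), for 3 and 2 in acRIP over IgG (25.4% and 40.2%) and for 2 and 2 in IgG over input (27.8% and 31.4%).

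The median log2 fold change of the 7 was 0.19 in acRIP over input, 0.24 in acRIP over IgG and 0.02 in IgG over input. Over all tested genes the medians were −0.10, −0.09 and −0.01. A ratio of FPKM + 1 above 2 over both IgG and input is one part of the rule by which the study defines acetylated transcripts. Taken alone, without the p-values that rule also requires, it was met by 2.02% of 35699 genes from the means of 3 libraries and by none of the 7. *Pcbp1* had 2.49 ± 0.168 (SD over the acRIP libraries, n = 3) over input but 1.51 ± 0.101 over IgG, and *Pcbp2* had 1.62 ± 0.0403 and 1.55 ± 0.0385. *Nat10* had 1.21 over input and 1.24 over IgG, *Thumpd1* 0.759 and 1.13, and *Tardbp* 1.07 and 1.04. The ratios of *Pcbp3* were 0.635 and 0.758 and those of *Pcbp4* 0.5999 and 0.603.

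The family changed its makeup between input and precipitate, and its summed level was higher in acRIP. The 4 *Pcbp* genes together summed to 154 FPKM in input, 158 FPKM in IgG and 172 FPKM in acRIP on average. Libraries ran from 153.4 to 154.2 in input, 152.2 to 161.2 in IgG and 164.9 to 179.3 in acRIP, which was clear of both. *Pcbp3* made up 65.8% ± 1.07 (SD, n = 3) of that sum in input, 53.6% ± 1.55 in IgG and 37.2% ± 1.06 in acRIP. *Pcbp1* made up 19.0% ± 1.05, 31.04% ± 1.09 and 43.3% ± 1.48. *Pcbp2* held 12.2% ± 0.236 in input and 12.4% ± 0.166 in IgG, and 18.1% ± 0.964 in acRIP. The share of *Pcbp4* was 3.01% ± 0.176, 2.91% ± 0.610 and 1.38% ± 0.259. *Pcbp1* thus took the lead from *Pcbp3* in all 3 acRIP libraries. Per base of the longest CCDS transcript the acRIP shares were 36.7% for *Pcbp1* and 36.2% for *Pcbp3*, so that lead depended on the length used.

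**Figure D3:**
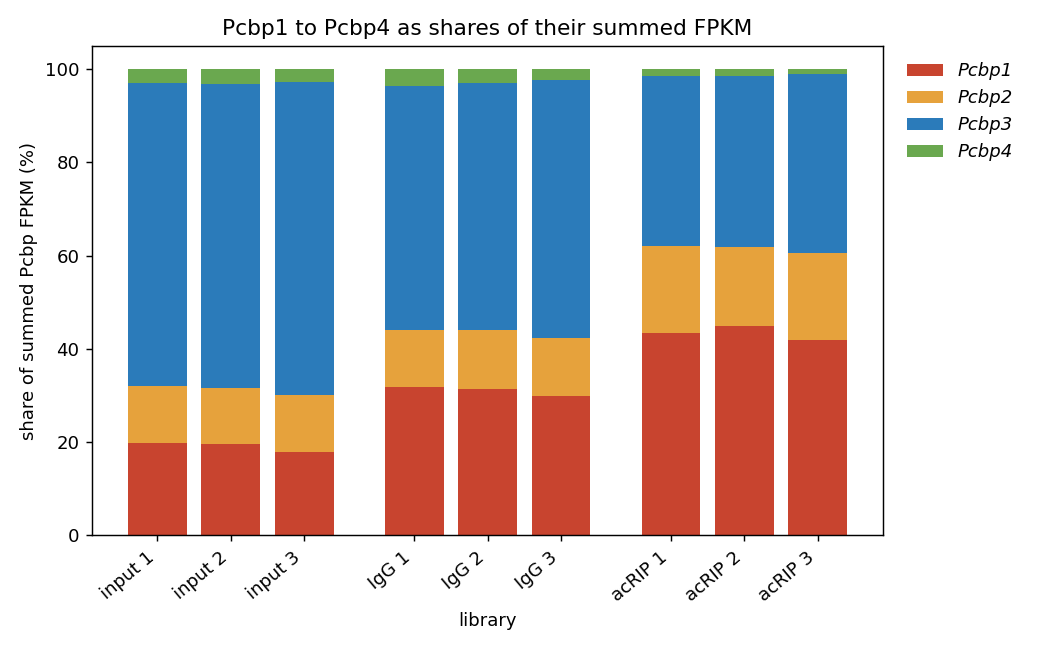
Share (%) of the summed FPKM of Pcbp1 to Pcbp4 held by each gene in each of the 9 libraries. Pcbp3 (blue) holds 65.8% on average in input and 37.2% in acRIP, and Pcbp1 (red) 19.0% and 43.3%.

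Ratios of counts within a library do not depend on its size or normalization, and 5 pairs were compared in this way. An exact two-sided permutation test of 3 against 3 libraries cannot give a p below 0.1, and the smallest adjusted p over the 15 tests was 0.167, so these ratios are given by their separation. The log2 ratio of *Pcbp2* to *Pcbp1* counts was 0.83, 0.79 and 0.98 in input. It was 0.13, 0.18 and 0.26 in IgG and 0.29, 0.11 and 0.34 in acRIP. Both precipitates lay below input without overlap and overlapped each other, with a difference of 0.06 ± 0.08 (SE) between acRIP and IgG.

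Set against *Nat10*, the adaptor transcripts differed in which groups of libraries were separate. No permutation test gave an adjusted p below 0.167, and how often other pairs of genes separate was not tested. The log2 ratio of *Pcbp1* to *Nat10* counts ran from 1.05 to 1.09 in input, 1.64 to 2.10 in IgG and 1.92 to 2.18 in acRIP, with both precipitates clear of input and overlapping each other. That of *Pcbp2* to *Nat10* ran from 1.84 to 2.03 in input, 1.90 to 2.23 in IgG and 2.21 to 2.44 in acRIP, where acRIP was clear of input but not of IgG. *Tardbp* to *Nat10* ran from 1.86 to 2.04 in input, 1.91 to 2.20 in IgG and 1.56 to 1.81 in acRIP, which was clear of both. *Thumpd1* to *Nat10* ran from 0.39 to 0.50 in input, −0.30 to 0.03 in IgG and −0.46 to −0.10 in acRIP, with both precipitates clear of input.

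**Figure D4:**
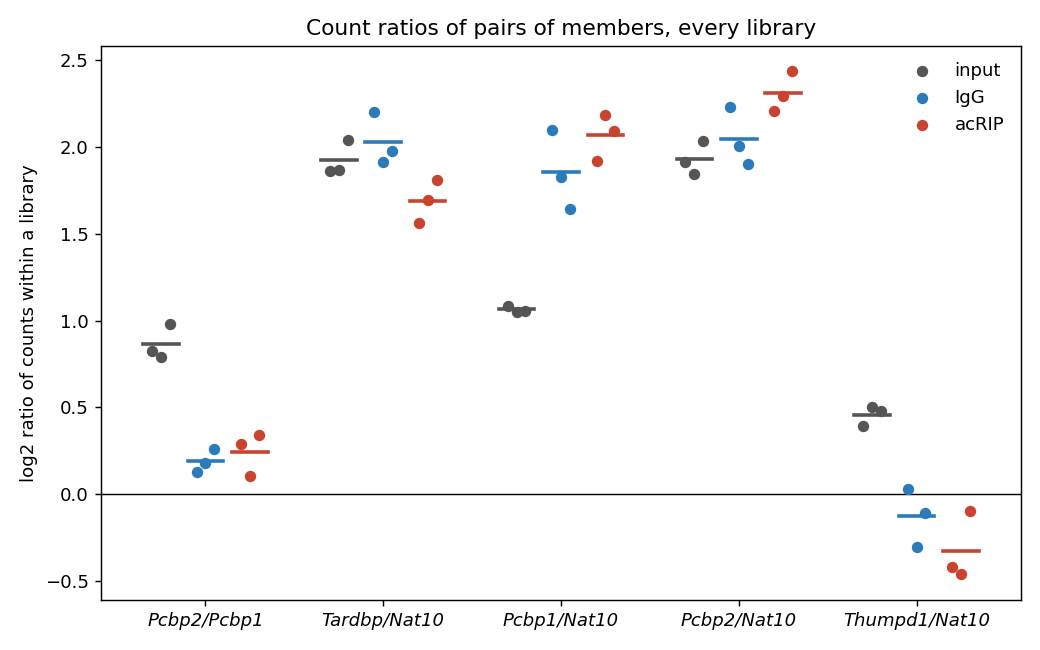
Log2 ratio of counts of 2 genes within a library (y axis) for 5 pairs, with each library as a point and each group mean as a bar. Pcbp2/Pcbp1 stands at 0.79 to 0.98 in input and at 0.11 to 0.34 in both precipitates.

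The transcripts of the 7 genes differed in length, structure and base composition. *Pcbp1* is 1 of 434 tested protein-coding genes (2.99% of 14501 with a CCDS transcript) whose longest CCDS transcript has a single exon. Those 434 genes had a median log2 fold change of −0.04 in acRIP over input, −0.07 in acRIP over IgG and −0.01 in IgG over input, near the medians of −0.13, −0.11 and −0.01 of the other 14067. *Pcbp1*, *Pcbp3* and *Pcbp4* were C-rich, with 30.8%, 29.1% and 32.2% cytidine against a median of 24.6%, and *Pcbp2* had 22.2%. The 2 *Pcbp* transcripts with acRIP enrichment lay on opposite sides of the median in cytidine content. Whether cytidine content goes with recovery was not tested. *Tardbp* had the longest 3′ UTR of the 7, with 5882 bases, and the lowest cytidine content, with 18.5%.

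UG-rich hexamers, the kind of sequence TDP43 binds, were searched on the sense strand of these transcripts with T for U. TGTGCG was found once in *Pcbp3* and once in *Pcbp4* and in 33.3% of the 14501 transcripts. TGTGTG, the plain UG repeat, was found 6 times in *Tardbp*, 4 in *Thumpd1*, 3 each in *Pcbp3* and *Pcbp4*, once each in *Nat10* and *Pcbp1* and not in *Pcbp2*. It was found in 71.7% of transcripts of all lengths. Per kilobase of transcript, *Thumpd1* had 1.49 matches, *Pcbp4* 1.47, *Pcbp3* 1.18, *Tardbp* 0.80, *Pcbp1* 0.55 and *Nat10* 0.26. The count in *Tardbp* thus goes with its length of 7477 bases. Of transcripts similar in length to *Tardbp*, 95.6% held TGTGTG, against 56.7% of those similar in length to *Pcbp1*. Matches of the 2 hexamers can overlap each other, and overlapping matches of TGTGTG were each counted. The match of letters is a description of the transcript and does not show a bound site.

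Lists of related genes set these values in context, beginning with the machinery of 18S rRNA maturation in which NAT10 works. Their medians stand beside those of all tested genes, which were −0.10 in acRIP over input, −0.09 in acRIP over IgG and −0.01 in IgG over input. Of 51 tested genes of the SSU processome and 18S rRNA maturation, the acRIP over IgG comparison called 2 higher and 2 lower (all tested genes: 11.5% and 20.9%). In acRIP over input 5 were higher and 6 lower (17.7% and 22.9%), and in IgG over input 3 were higher and 2 lower (13.5% and 7.22%). The list medians were 0.01, −0.10 and −0.10 on the log2 scale. *Snord13*, the U13 snoRNA that guides NAT10 to 18S rRNA, averaged 218 ± 45.8 FPKM (SD, n = 3) in input. It reached 1135 ± 66.9 with IgG and 1918 ± 249 with the ac4C antibody. Its log2 fold change was 2.39 ± 0.10 (SE) in IgG over input, 3.20 ± 0.10 in acRIP over input and 0.81 ± 0.09 in acRIP over IgG (edgeR adjusted p = 3.23e-20, 1.20e-23 and 2.26e-09). U13 is known as a short RNA without a poly(A) tail, while these libraries were primed with oligo(dT), and whether its reads came from a longer transcript was not tested.

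Among the protein genes of that list, *Nol6*, a component of the SSU processome, was highest among those called in acRIP over IgG (1.499 ± 0.15 SE, edgeR adjusted p = 1.07e-09), and *Nol10* lowest (−1.90 ± 0.26, adjusted p = 1.83e-07). *Nol10* was also the lowest in acRIP over input (−1.87 ± 0.25, edgeR adjusted p = 1.06e-07). *Riok2*, a kinase of late 40S maturation, was lowest in IgG over input (−1.03 ± 0.17, edgeR adjusted p = 3.50e-06). *Nop9*, the protein gene of the list with the highest input level, had FPKM means of 58.3, 60.7 and 51.3 in input, IgG and acRIP.

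Among tRNA modification enzymes, the company of *Thumpd1*, 18 of 60 tested genes were called lower in acRIP than in IgG and 1 was called higher, against 20.9% and 11.5% of all tested genes. In acRIP over input 16 were lower and 2 higher (all tested genes: 22.9% and 17.7%). In IgG over input 3 were lower and 1 higher (all tested genes: 7.22% and 13.5%). The list medians were −0.41, −0.39 and −0.05. *Pus3*, a pseudouridine synthase, had 16 to 30 counts per input library, 4 to 18 per IgG library and 0 in every acRIP library. Against a floor of 3 counts over the acRIP group it was, by summed counts, at least 15.9-fold higher in input and at least 11.2-fold higher in IgG. Fewer genes had any count in acRIP than in the other groups, and whether its 0 goes with that was not tested. *Lcmt2*, an enzyme of wybutosine synthesis, was lowest in IgG over input (−1.45 ± 0.31 SE, edgeR adjusted p = 0.000177) and highest in acRIP over IgG (1.33 ± 0.31, adjusted p = 0.000484), with 24 to 48 counts per IgG library. *Mettl1*, the tRNA m7G methyltransferase, was highest in IgG over input (1.44 ± 0.14, edgeR adjusted p = 1.47e-10) and in acRIP over input (1.20 ± 0.14, adjusted p = 5.83e-09). *Elp5*, an Elongator subunit, and *Dus1l*, a dihydrouridine synthase, had the highest input levels, with mean FPKM of 76.3 and 47.1. *Elp5* stayed at 72.9 in IgG and 71.5 in acRIP, and *Dus1l* was at 38.1 and 22.9.

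The THUMP-domain genes beside *Thumpd1* were chosen for mention after their values were seen. *Thumpd3* averaged 33.8 FPKM in input against 23.4 for IgG and 23.8 for acRIP, so that its precipitates also lay below input (edgeR log2 fold change −0.50 ± 0.05 SE, adjusted p = 3.75e-10, and −0.43 ± 0.05, adjusted p = 7.40e-09). *Thumpd2* had 1.07, 0.867 and 0.537, on 18 to 76 counts per library.

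KH-domain proteins outside the *Pcbp* family were often higher in IgG than in input. Of 32 tested genes, 12 were called higher and 1 lower in IgG over input, against 13.5% and 7.22% of all tested genes. In acRIP over input 11 were higher and 5 lower (all tested genes: 17.7% and 22.9%). In acRIP over IgG 1 was higher and 3 lower (all tested genes: 11.5% and 20.9%). The list medians were 0.51, 0.38 and −0.11. *Khsrp*, which binds AU-rich elements, was highest in IgG over input (2.29 ± 0.17 SE, edgeR adjusted p = 2.58e-13) and *Pnpt1*, a mitochondrial exoribonuclease, lowest (−1.11 ± 0.13, adjusted p = 8.31e-09). *Ddx43* was highest in acRIP over input (2.51 ± 0.13, edgeR adjusted p = 3.22e-17), and *Fubp3* was the gene called higher in acRIP than in IgG (1.12 ± 0.18, adjusted p = 3.93e-06). *Khdrbs2* had 6 to 24 counts per input library, 0 to 29 per IgG library and 0 in every acRIP library. Counts summed over a group were set against a floor of 3 counts over the acRIP group. By that measure it was at least 10.4-fold higher in input and at least 16.8-fold higher in IgG. The bound does not hold library by library for IgG, which overlapped acRIP at 0. *Akap1* and *Ascc1* had the highest input levels, with mean FPKM of 143 and 52.8, and were at 108 and 43.3 in IgG and at 95.8 and 45.0 in acRIP.

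A list of RNA-binding proteins studied beside TDP43 held RRM proteins and also *Atxn2* and *Atxn2l*, which are not RRM proteins. Of 24 tested genes, 6 were called higher and 0 lower in IgG over input. In acRIP over input 6 were higher and 2 lower, and in acRIP over IgG 0 were higher and 1 lower. *Atxn2* and *Atxn2l* were among the genes called higher in both comparisons with input. The shares of all tested genes called were 13.5% higher and 7.22% lower in IgG over input, 17.7% and 22.9% in acRIP over input, and 11.5% and 20.9% in acRIP over IgG. With edgeR's adjusted p below 0.05 at any fold, 15 rose and 3 fell in IgG over input (all tested genes: 25.9% and 26.0%), and 9 rose and 7 fell in acRIP over IgG (all tested genes: 26.4% and 37.6%). The list medians were 0.44, 0.36 and 0.09, against 0.09, 0.19 and 0.10 for *Tardbp*. *Hnrnpa0* was highest in IgG over input (2.09 ± 0.17 SE, edgeR adjusted p = 4.37e-12) and *Atxn2l*, a relative of ataxin-2, in acRIP over input (2.13 ± 0.05, adjusted p = 4.84e-27). *Ptbp1*, a splicing regulator, was lowest in acRIP over input (−1.92 ± 0.10, edgeR adjusted p = 8.65e-17), and *Elavl2* in acRIP over IgG (−1.32 ± 0.24, adjusted p = 2.27e-05). *Ewsr1* and *Hnrnpa2b1* had the highest input levels, with mean FPKM of 44.4 and 40.1. They were at 28.4 and 39.2 in IgG and at 31.5 and 46.8 in acRIP.

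The study named 2 further NAT10 partners, *Hnrnpm* and *Rps3*, and neither was called at 2-fold in any comparison. *Hnrnpm* averaged 10.2 FPKM in both input and IgG and 12.4 in acRIP, with a log2 fold change of 0.34 ± 0.06 (SE) in acRIP over IgG (edgeR adjusted p = 1.97e-05). *Rps3*, a small-subunit ribosomal protein, had 43.5, 54.7 and 53.7. It was 0.36 ± 0.05 higher in IgG than in input on the log2 scale (edgeR adjusted p = 1.01e-07), and acRIP over IgG was 0.02 ± 0.05 (adjusted p = 0.695).

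**Figure D5:**
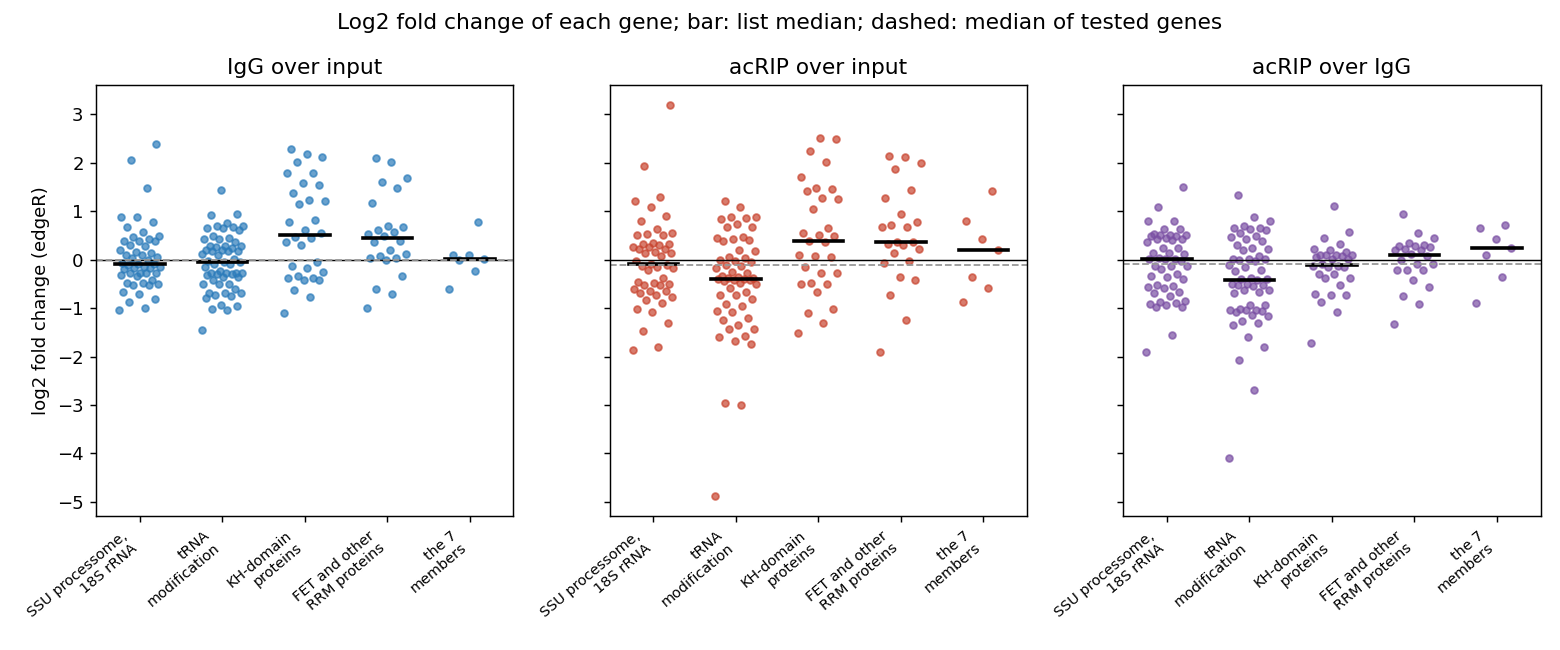
Log2 fold change (y axis) of each tested gene of 4 lists and of the 7 genes in 3 comparisons. Bars are medians and the dashed line is the median of the tested genes. The list labeled FET and other RRM proteins also holds Atxn2 and Atxn2l. Khdrbs2, Pus3 and Ctu1, at 0 counts in acRIP, are left out of the points in the acRIP comparisons. The tRNA modification list sits at a median of −0.41 in acRIP over IgG, and the 7 genes at 0.24.

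For each of the 7 genes, the protein-coding genes with the most similar profile over the 9 libraries were found by the root mean square difference of centered log2 CPM, counts scaled by the library total. *Pcbp3* was most similar to *Cyp17a1* (0.02) and *Prmt7* (0.04). *Tardbp* was closest to *Krcc1* and *4930544G11Rik* (0.03 each). *Pcbp1* was closest to *Megf9* (0.06) and *Aak1* (0.10), and *Pcbp2* to *Gtf2h5* (0.05) and *Vps52* (0.06). *Nat10* was closest to *Arhgap12* and *Chchd1* (0.07 each), *Thumpd1* to *Gm26661* (0.05) and *1700057G04Rik* (0.06), and *Pcbp4* to *Cbr1* and *Os9* (0.12 each). None of the nearest genes to any of the 7 was another of the 7.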

How the data were processed

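The authors deposited raw counts of reads per gene for 9 libraries, not normalized, with each gene's length as another column. Per the methods, oligo(dT)-selected RNA was precipitated, made into cDNA by Smart-seq2 with oligo(dT) priming and amplification, and sequenced as read pairs. Reads were trimmed (Trim Galore 0.6.7), mapped to mm10 (STAR 2.7.10a) and counted with featureCounts 2.0.2, uniquely mapped reads only. The annotation and strand setting are not given in the sources used here. Of counts from 1 to 20, 81.9% to 84.3% were even, so mates may have been counted separately. Halved counts were an alternative. Recovered RNA was too scarce to quantify, so values are shares of a library.

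Identifiers were named by GENCODE vM21, in which 55141 of 55401 matched and all 7 members had the same coordinates. Groups and replicate numbers came from the labels. edgeR 4.0.16 (quasi-likelihood, filterByExpr, TMM) was fitted to all 9 libraries without covariates. On simulated counts with 191 changed genes, it recovered 166 and called 1 unchanged gene in acRIP over IgG. Far fewer genes changed there than were called in these data, and only in acRIP. That run therefore cannot check normalization or calling under broad change. DESeq2 1.42.0, other normalizations, filters, a replicate block, the 6 libraries compared alone and leaving out each library were alternatives. FPKM + 1 ratios used group means. Within-library ratios, with 0.5 added to each count, were tested by exact permutation. Coding sequences were aligned with MAFFT 7.526, and motifs and windows were searched as exact matches. Sequences came from GENCODE vM21 transcripts and the GRCm38 assembly. Protein sequences were not used here.

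Named genes were the 7 members, the 2 genes of each list with the highest input level, the highest and lowest called gene of each list and comparison, the 2 nearest profiles of each member, and overlapping genes and pseudogenes. The members and lists were chosen with earlier results of these data known. No libraries of a group held identical values, and each pair differed by more than sampling noise (mean chi-square per gene 3.85 to 5.84). Deviations of libraries with the same number correlated at −0.01 to 0.04, so the numbers were not taken as pairs.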

Additional observations from a re-analysis of the deposited data

How the results depend on the processing

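The single call, *Pcbp1* higher in acRIP than in input, was made under every alternative run, with log2 fold changes from 1.34 to 1.47. Counts of members called moved only for lower genes when 1 library was left out, from 0 to 1 in acRIP over input and from 0 to 1 in acRIP over IgG. The gene was *Pcbp4*, without acRIP replicate 2 in both comparisons and without IgG replicate 3 in the latter. Signs of fold changes turned in IgG over input, for values that passed no test, and for no member in acRIP over input or acRIP over IgG. *Nat10* went to 0.001 with at least 10 counts in every library, 0.004 with halved counts, and 0.01, 0.006 and 0.08 without input replicates 1 and 2 and IgG replicate 1, within −0.058 to 0.08 over all libraries left out in turn. *Tardbp* went to −0.008 and *Pcbp4* to −0.081 under upper quartile normalization, which moved the median of all genes from −0.01 to −0.11. *Pcbp4* went to −0.014 with total counts, to −0.012 with no filter, and to −0.03, −0.13, −0.006 and −0.007 without input replicate 3, IgG replicates 1 and 2 and acRIP replicate 1, within −0.13 to 0.194 over all of them. *Tardbp* in acRIP over IgG passed 0.05 in 5 alternatives (0.12 to 0.15), and *Thumpd1* lost it in 5 (0.18 to 0.23). With the replicate block the counts of members called were 1 higher in acRIP over input and 0 otherwise, and no call changed (*Pcbp1* 1.43, *Pcbp2* 0.71 over IgG). *Pcbp4* had the fewest counts of the 7, 133 to 222 per acRIP library, and its IgG libraries spread from 3.45 to 5.62 FPKM; which of these sets its wide interval was not tested. Amplified reads are not independent molecules, so intervals cover the spread of these libraries.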
